A study of Mus musculus with 33 samples.

Results

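The genes described here are 10 genes of skeletal muscle, Myod1, Myog, Des, Myh3, Actc1, Acta1, Tnnt3, Ckm, Neb and Ttn, followed through RNA-seq libraries of mouse mammary organoids, mouse mammary tumors and a mouse mammary cell line. They were chosen by name out of the 30184 gene symbols in the 4 deposited tables. Together they cover the factors, the sarcomere proteins and the enzyme that mark this tissue. The choice was made with earlier results of these data known, so counts over the 10 genes are a description. All 10 have a row in the organoid, tumor and trichostatin A tables, and 9 of them have one in the guide RNA table, which holds no row for Myod1. In the organoids all 10 genes were lower with floxed Trps1 and 2 floxed Cdh1 alleles, and at day 28 all 10 were higher with floxed Trps1 and 1 floxed Cdh1 allele.

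The study is about the transcription factor TRPS1 in mammary epithelium and breast cancer, and RNA of 33 samples was sequenced. The organoids were primary mammary organoids grown in Matrigel and transduced with AdCre, an adenovirus that carries the Cre recombinase, and were harvested at day 14 or day 28. A floxed allele, written F, is one that Cre can delete, and Cdh1 encodes E-cadherin. The reference genotype, Cdh1F/F;Trps1+/+, is called Trps1-intact below. Of the 2 genotypes with floxed Trps1, Cdh1+/F;Trps1F/F is called Cdh1-heterozygous, since it keeps 1 Cdh1 allele that Cre leaves, and the other, Cdh1F/F;Trps1F/F, is called double-floxed. Each genotype had 2 libraries at each day. Every organoid group received AdCre and carried at least 1 floxed Cdh1 allele, so none had both genes intact, and the Cdh1-heterozygous group differs from the Trps1-intact group in both genes. The tumors came from mammary glands of WAP-cre;Cdh1F/F;Trps1F/F mice (8 tumors of 6 mice) and WAP-cre;Cdh1F/F;Trps1+/+ mice (3 tumors of 3 mice). WAP-cre is a Cre transgene driven by the promoter of a milk protein gene, active in secretory mammary epithelium. HC11 is a mouse mammary epithelial line. It was exposed for 24 h to DMSO or to 300 nM TSA, short for trichostatin A, which blocks histone deacetylases (3 libraries each), or carried 1 guide RNA against Trps1 (sgTrps1) or 1 scrambled guide RNA (sgScr), with 2 libraries each. Each guide RNA stands for its group alone, and the labels give no age for the mice.

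Skeletal muscle forms when committed myoblasts leave the cell cycle, switch on myogenic transcription factors and fuse into multinucleate fibres. MyoD commits cells to the lineage, and myogenin, the product of Myog, follows it as cells differentiate; both bind the E-box in muscle promoters, alongside MEF2 and serum response factor, which binds the CArG box. The sarcomere genes come next, with embryonic isoforms of myosin and the cardiac isoform of actin expressed first and largely replaced by adult isoforms as fibres mature. A mammary gland holds milk-producing luminal cells, contractile myoepithelial cells of smooth muscle character and a stroma of fat, fibroblasts, vessels and leukocytes. It lies on the body wall near skeletal muscle, but its own epithelium makes no sarcomeres.

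Promoter sequences were taken from RefSeq (GRCm38.p6), which matched 7 of the 10 genes: Des, Myog, Ttn, Actc1, Ckm, Acta1 and Myh3. Those below are shown because they hold the 2 boxes by which muscle promoters are often recognised, and because they belong to genes that moved together in the organoids. Each runs 5′ to 3′ on the gene's own strand from base 170 before the RefSeq start, and ends before the first base of any GENCODE exon. Capitals mark a MEF2 box (in Myog, Myh3 and Ttn), a CArG box (in Acta1 and Actc1) or the TATAAA motif (in Acta1 and Myh3). The stretches lie at chr8:123894776-123894945 (minus strand), chr2:114052888-114053045 (minus), chr1:134289834-134289988 (plus), chr11:67078130-67078299 (plus) and chr2:76982548-76982717 (minus).
Acta1: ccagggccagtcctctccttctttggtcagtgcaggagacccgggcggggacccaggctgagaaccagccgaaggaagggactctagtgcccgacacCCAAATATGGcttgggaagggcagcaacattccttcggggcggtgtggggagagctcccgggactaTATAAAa
Actc1: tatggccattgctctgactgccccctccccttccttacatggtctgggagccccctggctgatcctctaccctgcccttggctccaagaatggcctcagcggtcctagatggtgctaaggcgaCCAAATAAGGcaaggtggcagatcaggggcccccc
Myog: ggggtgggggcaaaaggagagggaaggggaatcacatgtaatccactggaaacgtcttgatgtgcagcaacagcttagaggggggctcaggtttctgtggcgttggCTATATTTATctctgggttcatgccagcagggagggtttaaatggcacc
Myh3: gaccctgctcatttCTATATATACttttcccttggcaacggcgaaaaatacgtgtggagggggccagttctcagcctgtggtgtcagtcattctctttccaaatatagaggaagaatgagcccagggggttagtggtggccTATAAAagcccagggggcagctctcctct
Ttn: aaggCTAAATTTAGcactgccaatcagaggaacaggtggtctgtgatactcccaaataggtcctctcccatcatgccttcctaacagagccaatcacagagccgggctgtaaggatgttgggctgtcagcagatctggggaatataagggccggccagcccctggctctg

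Matches were sought on both strands of the 250 bases before the start, and are a description of letters, not of bound sites. The MEF2 box was in 3 of the 7 promoters and in 7.03% of 32851 RefSeq promoters of the same length. The CArG box was in 2 of the 7 and in 1.47% of all. The E-box CANNTG was in 6 of the 7, with Actc1 the one without, but also in 66.2% of all promoters. Its form CAGCTG, a subset of CANNTG, was in the promoters of Des, Ckm and Acta1, 3 of 7, and in 13.0% of all. TATAAA was in 2 of 7 and in 12.4% of all.

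Values below are the deposited log2(normalized count + 1), so that 1 unit is a doubling, and differences between groups were tested with limma over all genes of a table. A gene rose or fell where its p, adjusted by Benjamini-Hochberg over all genes tested, was under 0.05. The labels do not say that libraries of 1 group came from separate cultures, so p-values of organoids and cell lines measure the spread between these libraries, which may be technical. With 2 libraries in an organoid group, 2 groups may fail to overlap without a true difference, so no overlap is a description. In libraries of bulk tissue, fewer cells of a type and less RNA per cell cannot be told apart. Intervals of shares and limits of 0 counts given below cover counting error only. Reads per library ran from 14858175 to 30341900 in the organoids, from 18320414 to 24225027 in the tumors, and from 17809076 to 38773075 in HC11.

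Organoid Trps1, the gene that sets the groups apart, stood between 13.51 and 13.96 in the 4 Trps1-intact libraries, between 11.05 and 11.39 in the 4 double-floxed libraries and between 9.45 and 10.04 in the 4 Cdh1-heterozygous libraries. All 3 genotypes were thus apart, and Trps1 was 4.67-fold lower in double-floxed organoids and 14.0-fold lower in Cdh1-heterozygous organoids at day 14 (adjusted p = 1.96e-06 and 1.09e-08). Cdh1 lay between 13.04 and 13.94 in all 12 libraries and did not follow the number of floxed alleles. The exons that Cre removes are not known here, so reads of the whole gene do not check the deletion. In the tumors Trps1 overlapped between genotypes (9.90 to 12.63 with floxed Trps1, 11.46 to 12.94 without).

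The myogenic factors come first. Myod1 (chr7:46376474-46379099, GRCm38, plus strand) encodes MyoD. Its level in the Trps1-intact organoids was 6.33 and 6.79 at day 14 and 5.95 and 6.62 at day 28. In double-floxed organoids it was 5.44 and 4.71 at day 14 and 3.21 and 2.87 at day 28, below the first genotype without overlap. In Cdh1-heterozygous organoids it was 6.75 and 6.53 at day 14, within the range of Trps1-intact organoids, and 8.17 and 7.51 at day 28, above it. Against Trps1-intact organoids, Myod1 was 2.80-fold lower in double-floxed organoids at day 14 (log2 fold change -1.49, SE 0.33, adjusted p = 0.00374; limma, n = 2 and 2) and 9.50-fold lower at day 28 (-3.25, SE 0.33, adjusted p = 6.38e-06). Without replicate 2 of double-floxed organoids at day 14, the day 14 difference was -1.12 and not called (adjusted p = 0.053). In Cdh1-heterozygous organoids it was 2.93-fold higher at day 28 (adjusted p = 0.00149).

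Myog (chr1:134289989-134292548, plus strand) encodes myogenin, which drives terminal differentiation; the promoter stretch above with CTATATTTAT in capitals is its own. It stood at 7.48 and 7.65 in Trps1-intact organoids at day 14 and at 5.75 and 6.26 at day 28. Double-floxed organoids had 5.44 and 5.91, then 3.95 and 3.63. Cdh1-heterozygous organoids had 7.28 and 7.23, then 7.96 and 7.57, so at day 14 they lay just under Trps1-intact organoids and at day 28 well above them. Myog was 3.70-fold lower in double-floxed organoids at day 14 and 4.65-fold lower at day 28 (adjusted p = 7.82e-05 and 1.39e-05). In Cdh1-heterozygous organoids the difference was -0.31 at day 14 (95% interval -0.84 to 0.23, adjusted p = 0.362) and 1.76 at day 28 (adjusted p = 5.98e-05).

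Des (chr1:75360329-75368579, plus strand) encodes desmin, the intermediate filament that ties sarcomeres together; smooth muscle makes it too. In Trps1-intact organoids it stood at 11.48 and 11.87 at day 14 and 10.40 and 11.01 at day 28. The values in double-floxed organoids were 9.82 and 9.89, then 8.15 and 7.48, and those in Cdh1-heterozygous organoids were 11.99 and 12.07, then 13.04 and 12.56. The order of the genotypes was the same at both days and no libraries overlapped, though the upper pair of genotypes lay close at day 14 (difference 0.35, adjusted p = 0.254). Des fell by 1.82 in double-floxed organoids at day 14 and by 2.89 at day 28 (SE 0.23, adjusted p = 5.67e-05 and 8.71e-07), and rose by 2.09 in Cdh1-heterozygous organoids at day 28 (adjusted p = 6.56e-06).

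Myh3 (chr11:67078300-67102291, plus strand) encodes the embryonic myosin heavy chain, and Actc1 (chr2:114047282-114053548, minus strand) the cardiac actin that developing skeletal muscle also makes. Myh3 stood at 8.26 and 8.89 in Trps1-intact organoids, 8.38 and 9.13 in Cdh1-heterozygous organoids and 5.91 and 5.86 in double-floxed organoids at day 14. By day 28 the same genotypes had 7.30 and 7.42, 10.15 and 9.48, and 4.74 and 2.87. It had the largest error of the 10 genes (SE 0.46), with an SD of 1.33 in double-floxed organoids at day 28. Without replicate 1 of those 2 libraries its day 28 difference from Trps1-intact organoids was -4.49, and without replicate 2 it was -2.61. Actc1 went from 6.58 and 7.12 to 5.38 and 5.91 in Trps1-intact organoids, and from 4.24 and 3.96 to 3.63 and 2.60 in double-floxed organoids. It went from 6.77 and 6.53 to 7.50 and 6.99 in Cdh1-heterozygous organoids. Against Trps1-intact organoids, both genes fell in double-floxed organoids at both days, Myh3 by 2.69 and 3.55 (adjusted p = 0.000655 and 5.03e-05) and Actc1 by 2.75 and 2.53 (adjusted p = 6.74e-05 and 8.77e-05). At day 28 in Cdh1-heterozygous organoids Myh3 rose by 2.46 and Actc1 by 1.61 (adjusted p = 0.00063 and 0.00191).

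Acta1 (chr8:123891769-123894751, minus strand) encodes the adult skeletal alpha-actin of the thin filament, and Tnnt3 (chr7:142498836-142516009, plus strand) the fast-fibre troponin T that sets the calcium response of that filament. Acta1 was at 11.80 and 12.27 in Trps1-intact organoids at day 14 and 11.30 and 11.79 at day 28; in double-floxed organoids it was at 10.43 and 10.54, then 9.11 and 8.13. Cdh1-heterozygous organoids had 12.49 and 12.50, then 13.98 and 13.51. With 2 libraries in each group, the genotypes did not overlap at either day, which is a description. For Tnnt3 the values were 9.83 and 10.21, then 9.05 and 9.66, in Trps1-intact organoids. They were 8.04 and 8.07, then 7.40 and 6.69, in double-floxed organoids, and 10.61 and 11.08, then 13.33 and 13.09, in Cdh1-heterozygous organoids. Tnnt3 had the largest difference of the 10 genes between Cdh1-heterozygous and Trps1-intact at day 28, 14.5-fold (log2 fold change 3.85, SE 0.24, adjusted p = 4.14e-08), and was 1.77-fold higher already at day 14 (adjusted p = 0.0162). That day 14 rise was not called without replicate a of Trps1-intact organoids (0.64, adjusted p = 0.15) or without replicate b of Cdh1-heterozygous organoids (0.59, adjusted p = 0.16).

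Ckm (chr7:19404776-19422841, plus strand) encodes muscle creatine kinase, which buffers ATP in working fibres and comes on late in differentiation. Its level was 6.68 and 7.55 in Trps1-intact organoids at day 14 and 7.37 and 8.00 at day 28. In double-floxed organoids it was 5.77 and 6.06, then 4.95 and 4.22, and in Cdh1-heterozygous organoids 8.84 and 9.20, then 11.58 and 11.14. Of the 10 genes, Ckm had the largest difference between the floxed genotypes at both days. It was 3.76-fold higher in Cdh1-heterozygous organoids than in Trps1-intact organoids at day 14 (adjusted p = 0.000392) and 12.8-fold higher at day 28 (adjusted p = 6.77e-07), and at day 28 it was 109-fold lower in double-floxed organoids than in Cdh1-heterozygous organoids (log2 fold change -6.77, SE 0.31, adjusted p = 1.51e-09). Its fall in double-floxed organoids at day 14 was the smallest of the 10 (-1.20, adjusted p = 0.0104). It was not called without replicate b of Trps1-intact organoids (-0.76, adjusted p = 0.12) or without replicate 1 of double-floxed organoids (-1.05, adjusted p = 0.086).

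Neb (chr2:52136647-52378474, minus strand) encodes nebulin, the ruler of the thin filament, and Ttn (chr2:76703980-76982547, minus strand) encodes titin, the spring that spans the sarcomere. Neb was at 9.81 and 9.71 in Trps1-intact organoids, 10.04 and 10.24 in Cdh1-heterozygous organoids and 7.81 and 7.70 in double-floxed organoids at day 14, and at 8.31 and 9.17, 11.96 and 11.69, and 6.31 and 6.31 at day 28. Ttn was at 9.82 and 10.05, 10.24 and 10.26, and 7.87 and 8.03 at day 14, and at 8.48 and 8.87, 12.05 and 11.84, and 6.31 and 6.11 at day 28. The 2 giant genes stayed close to each other in every organoid library, with a Ttn level above that of Neb by 0.34 at most and below it by 0.30 at most (log2 of counts, not per length). Ttn had the smallest error of the 10 genes. It was 3.96-fold lower in double-floxed organoids at day 14 and 5.52-fold lower at day 28 (SE 0.14, adjusted p = 5.65e-07 and 6.64e-08), and 9.63-fold higher in Cdh1-heterozygous organoids at day 28 (adjusted p = 1.87e-09).

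**Figure D1:**
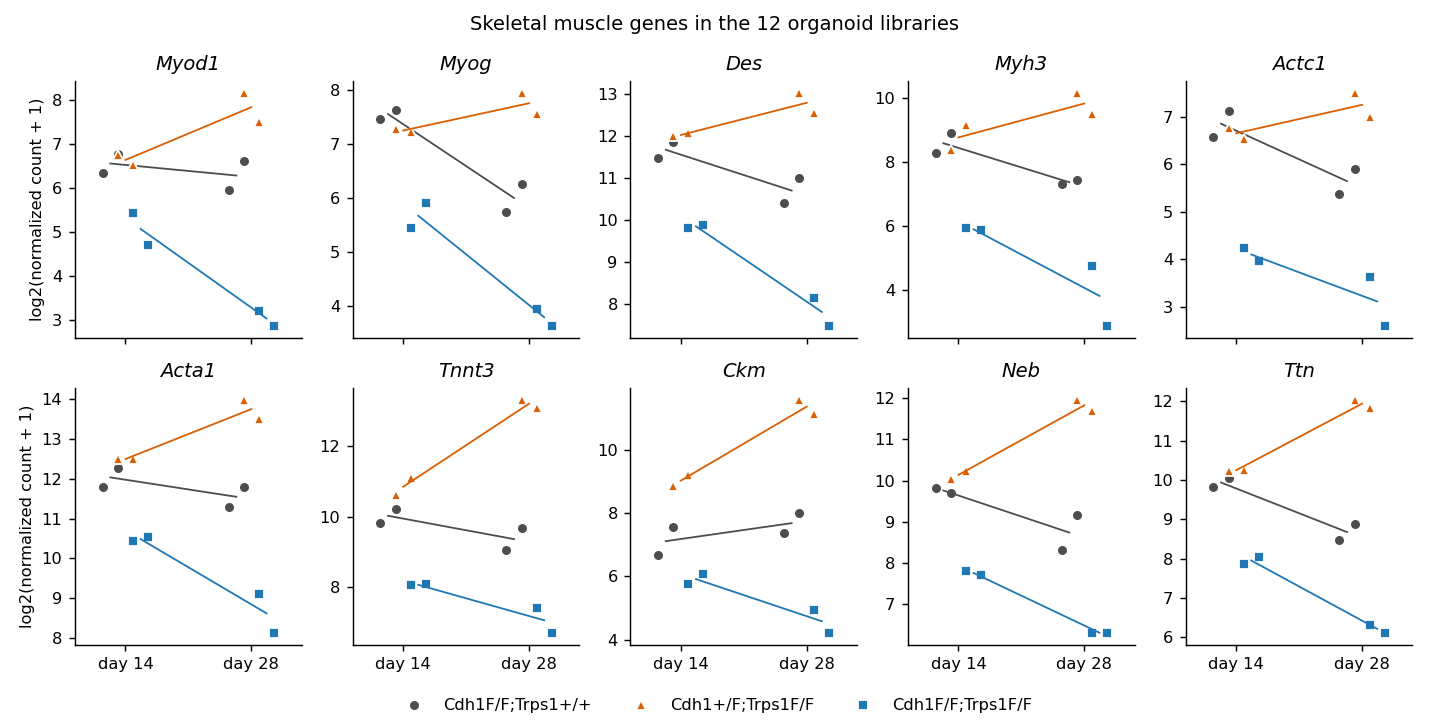
Level of each of the 10 genes, as log2(normalized count + 1), in the 12 organoid libraries at day 14 and day 28; each point is a library, lines join group means, and each panel has its own axis. The lines of Cdh1-heterozygous organoids run up in every panel and those of double-floxed organoids run down, with double-floxed lowest at both days.

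Counted over the panel, all 10 genes fell in double-floxed organoids against Trps1-intact organoids at day 14, with a median log2 fold change of -1.93 and a range of -2.75 to -1.20. Of all 15873 organoid genes tested, 17.9% fell and 14.5% rose in this comparison, and their median was -0.01. At day 28 again all 10 fell, with a median of -2.71 and a range of -3.55 to -2.22, while 23.4% of all genes fell and 19.9% rose. Cdh1-heterozygous against the same controls gave 2 genes higher at day 14, Ckm and Tnnt3, with a median of 0.33 over the 10, while 18.9% of all genes rose and 17.4% fell. That count was 6 with only these groups in the fit, where Ttn, Neb, Acta1 and Des joined and 3128 of 15873 genes rose. Tnnt3 lost its call without replicate a of Trps1-intact (0.64) or replicate b of Cdh1-heterozygous organoids (0.59). At day 28 all 10 rose, with a median of 2.33 and a range of 1.55 to 3.85, against 28.7% of all genes that rose and 24.6% that fell. Both floxed genotypes are measured here against the same Trps1-intact libraries, so the comparisons are not independent of each other.

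With Trps1 floxed in both groups, all 10 genes were lower in the genotype with the second floxed Cdh1 allele. Trps1 itself also differed between these genotypes. Its group means were 11.33 in double-floxed and 9.74 in Cdh1-heterozygous organoids at day 14, and 11.14 and 9.75 at day 28. The Cdh1 allele cannot be told apart from this difference or from one between organoid preparations. Against Cdh1-heterozygous organoids, the double-floxed organoids were lower by a median of 2.34 on the log2 scale at day 14 (median log2 fold change -2.34, range -3.11 to -1.57) and lower still at day 28 (median -5.32, range -6.77 to -3.97). Over all genes, 21.6% and 29.0% fell in these 2 comparisons. Myog had the smallest day 28 difference, 15.7-fold, and after Ckm the largest were those of Tnnt3, 71.8-fold, and Myh3, 64.4-fold (adjusted p = 2.05e-08, 3.95e-10 and 1.61e-07). The Myh3 difference, -6.01, was -6.95 without replicate 1 and -5.07 without replicate 2 of double-floxed organoids, beside -5.73 for Ttn and -5.52 for Neb, so its place in the order rests on 1 library. With quantile normalization, of all genes called, the share that was higher moved from 46.8% to 57.7% at day 14 and from 48.8% to 61.8% at day 28, and from 53.8% to 41.8% for Cdh1-heterozygous organoids against Trps1-intact organoids at day 28; no member changed its call in these 3 comparisons.

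**Figure D2:**
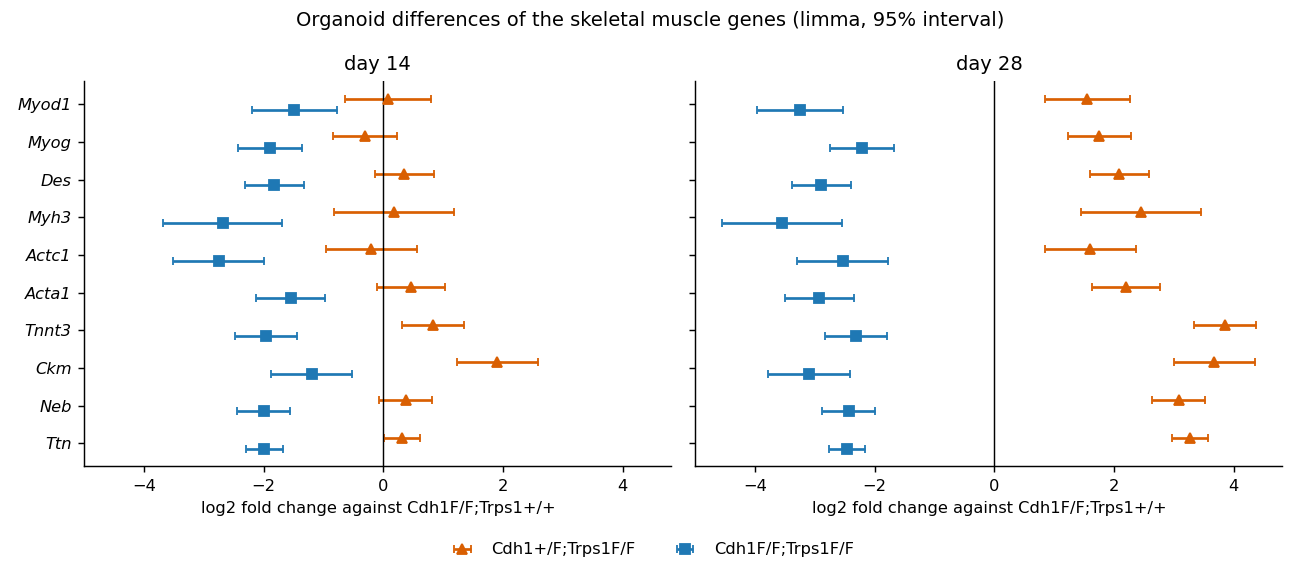
Log2 fold change of each gene against Trps1-intact organoids at day 14 (left) and day 28 (right), with 95% intervals from limma; triangles are Cdh1-heterozygous (Cdh1+/F;Trps1F/F) and squares double-floxed (Cdh1F/F;Trps1F/F). At day 28 the intervals of the 2 genotypes lie on opposite sides of 0 for all 10 genes, and at day 14 the triangles of Ckm (1.91) and Tnnt3 (0.83) stand out to the right.

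Time in culture moved the panel in different directions. From day 14 to day 28 all 10 genes fell in double-floxed organoids, with a median of -1.80 and a range of -2.08 (Myh3) to -0.99 (Actc1), while 20.6% of all genes fell. In Trps1-intact organoids, 5 fell: Myog by 1.56, Ttn by 1.26, Actc1 by 1.21, Neb by 1.02 and Des by 0.97, against 14.8% of all genes. The other 5 gave values between -1.22 (Myh3, adjusted p = 0.0704) and 0.57 (Ckm, adjusted p = 0.206). In Cdh1-heterozygous organoids, 7 rose, led by Tnnt3 (2.36), Ckm (2.33), Ttn and Neb (each 1.69), followed by Acta1 (1.25), Myod1 (1.20) and Des (0.77), against 20.5% of all genes that rose and 20.2% that fell. The other 3 were Myh3 at 1.06 (95% interval 0.06 to 2.06), Actc1 at 0.60 (-0.16 to 1.36) and Myog at 0.51 (-0.03 to 1.04). Several of these calls were lost in fits that left out 1 library, which keep 1 library in that group. The difference did not always shrink in those fits. Des and Actc1 in Trps1-intact organoids were not called without replicate b of day 14 (-0.78 and -0.94). The same held without replicate a of day 28 (-0.67 and -0.94). In double-floxed organoids without replicate 2 of day 28, Actc1 (-0.47), Ckm (-0.97) and Tnnt3 (-0.65) were not called. Actc1 was also not called without replicate 1 (-0.85) or replicate 2 (-1.13) of day 14, nor was Ckm without the latter (-1.19). Myh3 was at -3.02 without replicate 1 and at -1.14 without replicate 2 of day 28. The fall of Actc1 (adjusted p = 0.0445) was not called either with no filter, a pseudocount of 5, quantile normalization, voom weights or only the groups compared (adjusted p from 0.071 to 0.24; limma). Voom weights left 6 genes, with Ckm, Myh3 and Tnnt3 not called as well. Only the groups compared left 8, with Myh3 not called as well. Over all genes, 2933 fell with voom weights and 2298 with only the groups compared, against 3273 in the reported fit. In Cdh1-heterozygous organoids, Des was not called without replicate a (0.73) or b (0.80) of day 14 or replicate a of day 28 (0.53), nor Myod1 without replicate b of day 14 (1.09) or replicate a of day 28 (0.87).

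The change of the genotype difference between days was tested directly, as the difference at day 28 minus that at day 14. For Cdh1-heterozygous organoids against Trps1-intact organoids it was positive in all 10 genes, from 1.47 (Myod1) to 3.03 (Tnnt3), with a median of 1.94, and 18.1% of all genes had such a rise. All 10 passed, Ttn with the smallest adjusted p (2.96, SE 0.20, adjusted p = 1.36e-06). Of these, 3 genes lost their call in fits that left out 1 library, which keep 1 library in that group. The difference did not always shrink in those fits, as for Myod1 at 1.58 beside 1.47 with all libraries. Myod1 was not called without any 1 of 5 libraries (1.14 to 1.58), Myh3 without any 1 of 3 (1.90 to 1.97) and Actc1 without replicate b of Trps1-intact organoids at day 14 (1.54) or replicate a of Cdh1-heterozygous organoids at day 28 (1.55). For double-floxed organoids against Trps1-intact organoids, 4 genes had a further fall at day 28: Ckm by 1.90, Myod1 by 1.76, Acta1 by 1.38 and Des by 1.07 (adjusted p = 0.0128, 0.0215, 0.0244 and 0.0376), against 9.71% of all genes. None of these 4 genes kept its call in every fit that left out 1 library, which keeps 1 library in that group. Over those fits Ckm ran from -2.33 to -1.47, Myod1 from -2.12 to -1.40, Acta1 from -1.87 to -0.89 and Des from -1.40 to -0.74. Without replicate a of Trps1-intact organoids at day 14, Ckm was at -1.47, Myod1 at -1.54, Acta1 at -1.14 and Des at -0.87. Without replicate a of Trps1-intact organoids at day 28, Ttn was at -0.68 and Neb at -0.86.

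Levels can be set beside each other only per length, here as normalized counts per kilobase of exon, and on that scale the order differed between groups. In Trps1-intact organoids at day 14 the order ran from Acta1 (2764 per kilobase) over Des (880) and Tnnt3 (661) to Myog (126), Actc1 (71.8), Myh3 (64.2), Myod1 (50.8), Ckm (49.3), Neb (32.6) and Ttn (8.41). In Cdh1-heterozygous organoids at day 28 it ran from Acta1 (9069) over Tnnt3 (6009), Des (1921) and Ckm (911) to Myh3 (153), Myog (146), Neb (137), Myod1 (126), Actc1 (94.7) and Ttn (33.8). These 2 groups differ in both genotype and day. Ckm held rank 8 in the first and rank 4 in the second, but also rank 4 in Trps1-intact organoids at day 28 and in Cdh1-heterozygous organoids at day 14, and rank 5 in double-floxed organoids at both days. Myog held rank 4 in the first and 6 in the second, and rank 5 in Trps1-intact organoids at day 28 and in Cdh1-heterozygous organoids at day 14. In the first order, the ranges of the 2 libraries overlapped between neighbours from Actc1 to Ckm. In the second they overlapped between neighbours from Myh3 to Actc1.

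Within a library, the difference between 2 genes does not depend on how libraries were scaled, except through the 1 added to low counts. The log2 level of Ckm minus that of Myog was -0.80 and -0.10 in Trps1-intact organoids at day 14, 0.33 and 0.15 in double-floxed organoids and 1.56 and 1.97 in Cdh1-heterozygous organoids. By day 28 it was 1.62 and 1.74, 1.00 and 0.60, and 3.62 and 3.57 in the same order. It was higher at day 28 in every genotype without overlap, and highest in Cdh1-heterozygous organoids at both days. The level of Ckm minus that of the embryonic myosin Myh3 was -1.58 and -1.34 in Trps1-intact organoids at day 14, and 1.43 and 1.66 in Cdh1-heterozygous organoids at day 28. Other pairs did not rise with time in every genotype. Tnnt3 minus Myod1 went from 3.49 and 3.42 down to 3.10 and 3.04 in Trps1-intact organoids, and from 3.86 and 4.55 up to 5.16 and 5.58 in Cdh1-heterozygous organoids. Acta1 minus Actc1 went from 6.19 and 6.58 down to 5.48 and 5.54 in double-floxed organoids, and up in the other 2 genotypes.

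Other muscle genes moved in the same directions as the panel. Of 35 other sarcomere genes 32 were tested, and 28 of them fell in double-floxed organoids at day 14 and 31 at day 28, with none higher, while in Cdh1-heterozygous organoids 12 rose and 1 fell at day 14, and 30 rose at day 28. Myot (myotilin), Myh1 (a fast adult myosin), Myom2 (an M-band protein) and Tnni1 (slow troponin I) are examples: they fell by 2.37, 2.43, 1.89 and 2.28 in double-floxed organoids at day 14, and rose by 3.07, 4.15, 3.17 and 1.45 in Cdh1-heterozygous organoids at day 28. Among 23 genes of calcium release and the neuromuscular junction, 17 fell and 1 rose in double-floxed organoids at day 14, and 21 rose and 1 fell in Cdh1-heterozygous organoids at day 28. Trdn (triadin) rose by 4.43 and Chrna1 (a subunit of the muscle acetylcholine receptor) by 2.36. Of 11 genes of muscle energy metabolism, 10 fell in double-floxed organoids at day 14 and all 11 rose in Cdh1-heterozygous organoids at day 28, among them Pygm (muscle glycogen phosphorylase, 2.82), Eno3 (muscle enolase, 2.30), Pgam2 (2.65) and Cox6a2 (2.37). Of 19 myogenic regulators and fusion genes 16 were tested, and 12 fell and 1 rose in double-floxed organoids at each day, and 15 rose and 1 fell in Cdh1-heterozygous organoids at day 28. These lists were written with earlier results of the data known, so their counts are a description. The shares of all genes in each comparison are those given above for the panel.

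Of the early lineage genes, Pax7 and Myf5 had few reads. Pax7, which marks muscle stem cells, had between 1 and 9 reads in total in the 2 libraries of a group, and did not pass the filter. Myf5, an early myogenic factor, had between 9 and 138 reads per group, fell by 1.83 in double-floxed organoids at day 14 (adjusted p = 0.027) and rose by 2.89 in Cdh1-heterozygous organoids at day 28 (adjusted p = 0.00099).

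Fast and slow fibre isoforms gave different counts. In Cdh1-heterozygous organoids 18.9% of all genes rose and 17.4% fell at day 14, and 28.7% rose and 24.6% fell at day 28. All 11 fast fibre genes passed the filter, 9 of them rose in Cdh1-heterozygous organoids already at day 14 (median 1.24) and 10 at day 28 (median 3.25). Of the 8 slow fibre genes 5 passed, none rose and 1 fell at day 14 (median -0.45), and 3 rose at day 28 (median 1.45). The adult fast myosin Myh4 went from 7.86 in Trps1-intact organoids to 10.21 in Cdh1-heterozygous organoids at day 14, while the slow myosin Myh7 stayed at 2.81 and 2.80 with 14 and 11 reads in all. Slow troponin C, Tnnc1, was at 8.02 and 8.39 in the same genotypes at day 28 (difference 0.37, limma adjusted p = 0.23). In that comparison Tnni1, slow troponin I, rose by 1.45, and the largest rise in the slow list was 2.65. The 6 embryonic isoform genes fell in double-floxed organoids at day 14 and rose in Cdh1-heterozygous organoids at day 28, with Myh8 (perinatal myosin) at 3.71, Tnnt2 at 2.48, Myl4 at 2.34 and Chrng at 2.12. The difference between fast and slow lists was not tested. Myh3, Actc1 and Tnnt3 of the panel are also in these isoform lists.

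Markers of other cells moved as well, and their part in these results was not tested. Of all genes, 17.9% fell and 14.5% rose in double-floxed organoids at day 14, and 23.4% and 19.9% at day 28. In Cdh1-heterozygous organoids 18.9% rose and 17.4% fell at day 14, and 28.7% and 24.6% at day 28. Cardiac genes were near 0: of 9 only Tnni3 passed the filter, the summed level of the list was between 44.4 and 95.05 normalized counts in all 12 libraries, and Myh6 had at most 5 reads in a group. Smooth muscle and myoepithelial genes summed to between 8557 and 19404; 5 of 10 tested fell and 2 rose in double-floxed organoids at day 14, and 6 rose and 2 fell in Cdh1-heterozygous organoids at day 28. Acta2, smooth muscle actin, differed by 0.66 and 2.60 in these comparisons. Of 16 fibroblast genes, 15 fell in double-floxed organoids at each day, 13 rose in Cdh1-heterozygous organoids at day 14 and all 16 at day 28. Median differences in Cdh1-heterozygous organoids at day 14 were 2.33 for these genes and 0.33 for the panel, where 2 of 10 rose. At day 14 the fibroblast genes summed to between 98901 and 106962 in Trps1-intact organoids and between 25357 and 25860 in double-floxed organoids. In Cdh1-heterozygous organoids they summed to between 688373 and 779584. Col3a1 and Col1a2, fibrillar collagens, were 4.72 and 3.96 higher in Cdh1-heterozygous organoids at day 28. Of 10 macrophage and leukocyte genes tested, 8 fell in double-floxed organoids at day 14, and 7 fell and 1 rose at day 28. In Cdh1-heterozygous organoids 9 of them rose and 1 fell at day 14, and 6 rose and 1 fell at day 28. Of 8 adipocyte genes, 2 fell in double-floxed organoids at day 14 and 5 at day 28. In Cdh1-heterozygous organoids 1 of them rose at day 14 and all 8 at day 28.

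These lists had different counts over time, though the difference between lists was not tested. Between days in Cdh1-heterozygous organoids, 20.5% of all genes rose and 20.2% fell. Of 16 fibroblast genes, 2 rose and 4 fell (median 0.03), and their sum went down to between 392545 and 468630. Macrophage and leukocyte genes fell with time in this genotype, 9 of 10, with a median of -1.97. They summed to between 25988 and 26559 at day 14 and between 6662 and 8049 at day 28. Adipocyte genes, in contrast, rose, 7 of 8, with a median of 2.79, and summed to between 1095 and 1272 and then between 3239 and 3673. Over the same interval the sum of the 10 muscle genes went from between 14801 and 16160 to between 36846 and 48015. Endothelial genes fell in 6 of 12 and rose in 1. Of 4 Schwann cell genes tested, 2 fell with time and none rose. Sox10 and Mbp of that list rose by 0.79 and 0.85 in double-floxed organoids at day 14. Of 12 endothelial genes 3 fell and 2 rose in that comparison, where 17.9% of all genes fell and 14.5% rose.

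Epithelial genes ran the other way in part, with the shares of all genes as given above for each comparison. Of 10 luminal genes 8 rose and 1 fell in double-floxed organoids at day 14, and 1 rose and 6 fell in Cdh1-heterozygous organoids at day 28. Epcam stood between 13.28 and 14.32 in all group means, so every group held epithelial RNA. All 6 basal genes fell in Cdh1-heterozygous organoids at day 28, where they summed to between 23654 and 24840 against 91568 to 98422 in Trps1-intact organoids; Krt14 differed by -1.54 and Col17a1 by -2.59. As a share of all reads the 10 muscle genes were small, between 0.00353% and 0.215% of an organoid library.

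**Figure D3:**
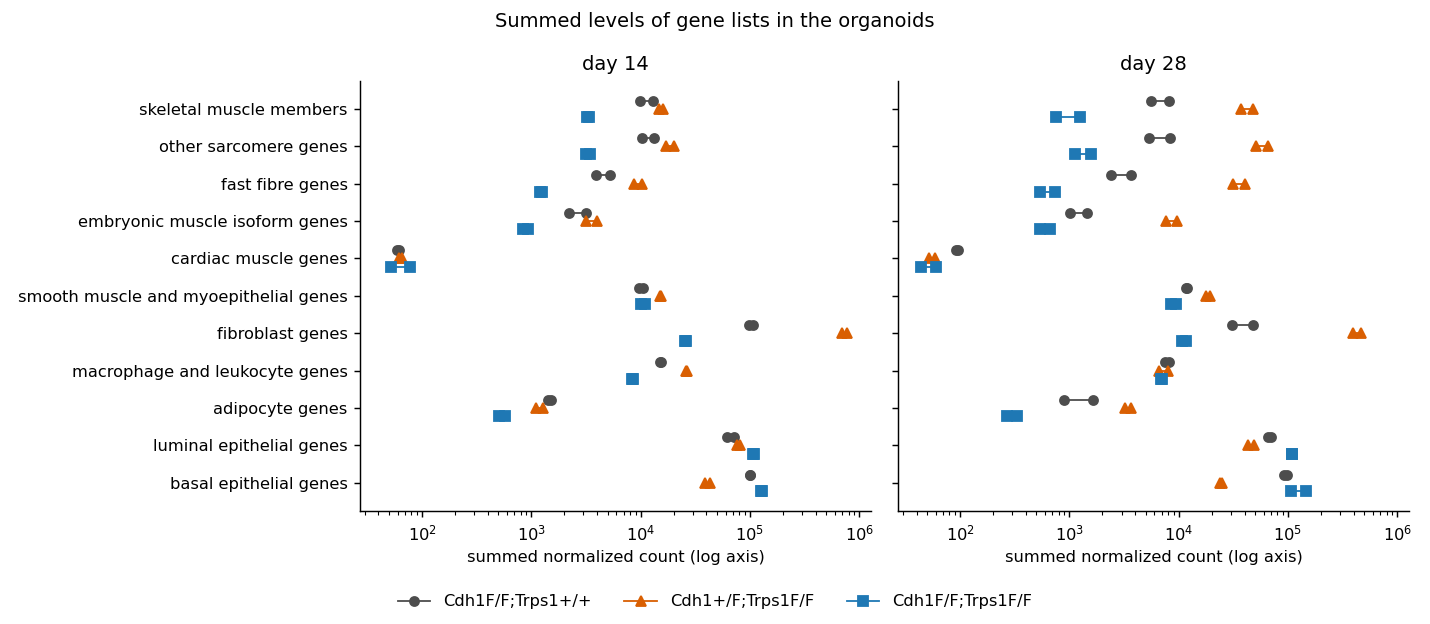
Summed normalized count of each gene list, on a log axis, in the organoids at day 14 (left) and day 28 (right); the 2 markers of a genotype are its 2 libraries, joined by a line. The muscle lists order the genotypes as the 10 genes do, the cardiac list stays between 44.4 and 95.05, and the basal list is lowest in Cdh1-heterozygous organoids.

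Genes outside the panel were ranked by how closely they followed the mean of its standardized values over the 12 organoid libraries, among 13464 genes. The 10 closest were Tnnt1, Dusp27, Chrna1, Pgam2, Actn2, Myom2, Pianp, Jsrp1, Ache and Trim54, with Pearson r from 0.999 down to 0.995. These points share libraries and genotypes, so r describes likeness only. Of these, 4 are in no list here: Dusp27, Pianp, Ache (acetylcholinesterase) and Trim54. Pianp had a narrow range, from 9.20 in double-floxed organoids to 10.59 in Cdh1-heterozygous organoids at day 28, whereas Tnnt1 ran from 6.62 to 11.40. Within the panel, Acta1 was closest to the mean (r = 0.996) and Ckm the least close (r = 0.945).

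Ttn, Neb, Des and Ckm each share exon bases with 1 antisense gene in GENCODE, and no source used here tells if libraries were stranded. Those antisense genes had at most 0, 1, 3 and 23 reads in an organoid library, while the smallest count of the gene itself was 54, 62, 141 and 14. For Ckm, reads of the antisense gene are therefore not negligible where Ckm is low. Of 50-base stretches of Ckm, 10.8% also occur in its antisense gene, and of those of Myh3, 4.76% occur in another gene, mostly Myh13.

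HC11 is a line of 1 epithelial cell type, so its libraries give the level of the panel without muscle tissue. The 10 genes together had between 18 and 34 reads in a DMSO library and between 192 and 252 in a TSA library, which is at most 0.00108% of the reads. Only 4 passed the filter. Myh3 was at 2.35, 1.70 and 2.37 with DMSO and at 6.63, 6.64 and 6.61 with TSA. Des was at 2.35, 1.08 and 2.63, then 5.90, 5.77 and 6.03, and Ckm at 0.00, 1.08 and 1.03, then 3.92, 3.87 and 3.98. The 2 treatments did not overlap for any of these 3 genes, as for 86.2% of all genes. Myh3 was 22.5-fold higher (log2 fold change 4.49, SE 0.25, adjusted p = 5.70e-09) and Des 14.7-fold (3.88, adjusted p = 9.67e-07), on a scale with 1 added. Ckm, with 0, 1 and 1 reads with DMSO against 13, 18 and 15 with TSA, differed by 3.22 (adjusted p = 1.15e-05), and no fold is given for so few reads. Acta1 was at 3.84, 2.95 and 3.38, then 3.92, 3.09 and 3.57, a difference of 0.14 (95% interval -0.60 to 0.88, adjusted p = 0.699), which turned to -1.45 after quantile normalization (adjusted p = 0.00713). Myh3, Des and Ckm passed the filter on low values through the TSA libraries alone, so once tested they had to differ. Of all 13044 genes, 43.6% rose and 41.6% fell: in this comparison most genes changed.

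The other 6 did not pass the filter. Ttn had 4 reads in the 3 DMSO libraries and 27 in the 3 TSA libraries, and Neb had 8 and 25. With TSA their levels were 2.96 to 3.44 and 2.81 to 3.57, above what 3 reads are worth in each library. Tnnt3 had 16 reads with DMSO and 8 with TSA. Myod1 had 2 reads in each group. Myog had 3 reads with DMSO and 0 with TSA, and Actc1 had 0 in both; in 1 library, a count of 0 allows up to 3 reads, which is 2.26 to 3.36 normalized counts. Myod1 and Myog thus stayed at or near 0 reads in the libraries where Myh3, Des and Ckm rose. Beyond the panel, cardiac Tnni3 had 0 reads with DMSO and 137 with TSA. The muscle and marker lists are not counted here, since a gene near 0 with DMSO could be tested only where TSA raised it. Trps1 was 8.26-fold lower with TSA (14.02, 13.96 and 13.94 against 10.97, 10.90 and 10.91, adjusted p = 6.84e-14).

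**Figure D4:**
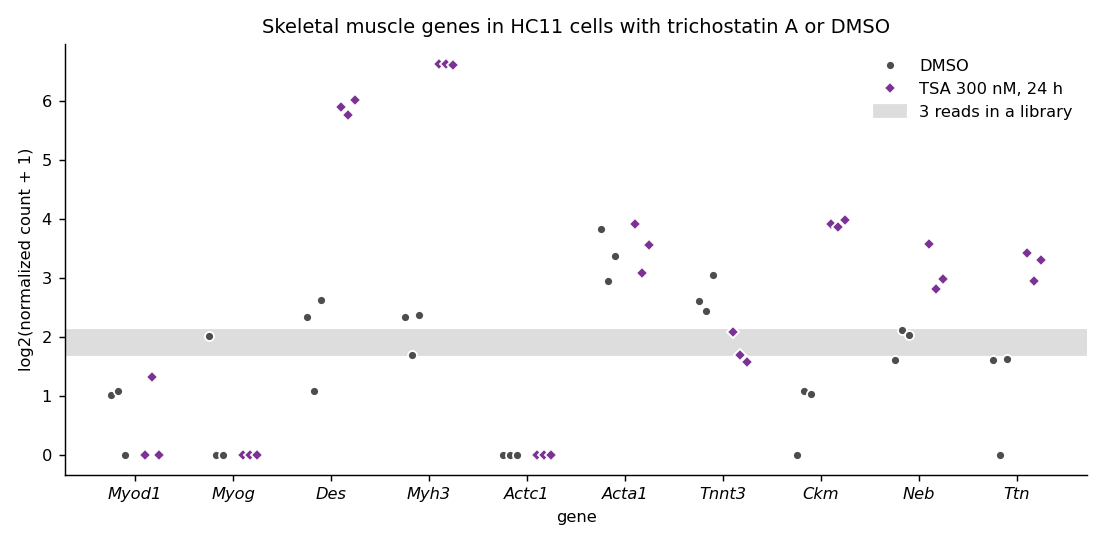
Level of the 10 genes, as log2(normalized count + 1), in the 3 DMSO and 3 TSA libraries of HC11 cells; the grey band is what 3 reads are worth in a library. Myh3, Des and Ckm with TSA lie above all DMSO values, while Myod1, Myog and Actc1 stay at or under the band in all 6 libraries.

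With guide RNAs, none of the 9 genes in the table passed the filter, so none was tested, while 67.1% of 12562 genes were called. Together they had 18 and 20 reads in the sgScr libraries and 44 and 35 in the sgTrps1 libraries, which were deeper. As shares of all reads these were 5.91e-05% and 9.36e-05% against 0.000117% and 9.03e-05%, which overlap. Acta1 had 2 and 3 reads against 18 and 11, Myh3 5 and 4 against 14 and 15, and Ckm 1 and 2 against 8 and 5. Des had 3 and 4 against 1 and 0, and Myog and Actc1 had 0 in all 4 libraries. Trps1 stood at 13.80 and 13.89 against 13.85 and 13.91 (adjusted p = 0.676; limma), which does not check a guide that cuts DNA.

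In tumors the panel spread over a wide range within both genotypes. Ttn in the 8 floxed Trps1 tumors was at 3.47 (mouse 17LCO102), 10.77 (17LCO103), 3.53 (18LCO003), 7.95, 14.22 and 10.89 (tumors 1, 2 and 3 of 18LCO025), 3.15 (18LCO027) and 13.17 (18LCO052). In the 3 tumors without floxed Trps1 it was at 4.83 (18LCO046), 11.09 (18LCO114) and 11.50 (18LCO128). Both genotypes thus held tumors with little Ttn and tumors with much, and the widest range over the 11 tumors was that of Neb, 12.65 on the log2 scale. Ckm ran from 0.99 (18LCO027) to 13.04 (18LCO052), and Acta1 from 4.03 (18LCO003) to 15.58 (tumor 2 of 18LCO025). That tumor 2 was the highest for 9 of the 10 genes, Ckm being the exception, and the 10 genes took 0.613% of its reads (95% Wilson interval 0.609% to 0.616%, counting error only) against 0.0118% in tumor 1 and 0.0721% in tumor 3 of the same mouse.

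By mouse, with the 3 tumors of 18LCO025 averaged, none of the 10 genes passed the test between genotypes (6 against 3 mice, limma). Log2 fold changes ran from -3.51 for Acta1 (9.17 ± 4.69 against 12.69 ± 1.51, mean ± SD; adjusted p = 0.800, higher with intact Trps1) to 1.19 for Myh3 (3.68 ± 2.38 against 2.49 ± 1.36, adjusted p = 0.835). Leaving out 1 mouse at a time moved Acta1 between -4.71 and -2.48, Myh3 between 0.41 and 1.93, Ttn between -3.78 and -0.44, and Ckm between -5.61 and -1.17. The 95% interval for Ttn, -7.73 to 4.49, takes in both falls and rises. It includes -1.98 and -2.46, the organoid differences between the same floxed genotypes at day 14 and day 28. Of all 15433 genes, 0% passed; 806 had an unadjusted p under 0.05, none of them in the panel, and limma with voom weights also called 0. Stromal lists varied too: fibroblast genes summed to between 59179 and 656433 with floxed Trps1 and between 429544 and 1173010 without, and luminal genes to between 1748 and 126123 and between 9914 and 30441. Their part in the spread of the panel was not tested.

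Tumors with much muscle RNA differed in the kind of it. Tumor 3 of 18LCO025 had Ckm at 10.63, Ttn at 10.89 and Acta1 at 12.46, but Myog at 2.05, Actc1 at 1.63 and Myh3 at 0.00. The tumor of 17LCO103, with Ttn at 10.77, had Myog at 7.47, Actc1 at 5.62 and Myh3 at 6.44. The level of Ckm minus that of Myog was 8.58 in the first and 2.23 in the second, and lay at 3.02 in tumor 2 of 18LCO025, 6.59 in 18LCO052, 8.38 in 18LCO114 and 5.45 in 18LCO128. The labels put tumor 3 of 18LCO025 and the tumor of 18LCO052 in 1 subgroup. They put the tumors of 17LCO103 and 18LCO003 and tumors 1 and 2 of 18LCO025 in another. The tumors of 17LCO102 and 18LCO027 form the last subgroup of floxed Trps1 tumors, and the subgroups were not tested. In the organoids the level of Ckm minus that of Myog was never above 3.62. The 2 tables were scaled apart. As above, a difference within a library does not rest on that scale, except through the 1 added to low counts. That exception covers tumor 3 of 18LCO025, where Myog was at 2.05. The Neb level in the tumor of 18LCO027 was 7.23, where Ttn was at 3.15 and Ckm at 0.99. In the tumor of 18LCO046, Acta1 made up 86.3% of the reads of the panel, Ckm was at 3.17, and Myod1 and Myog had 0 reads.

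**Figure D5:**
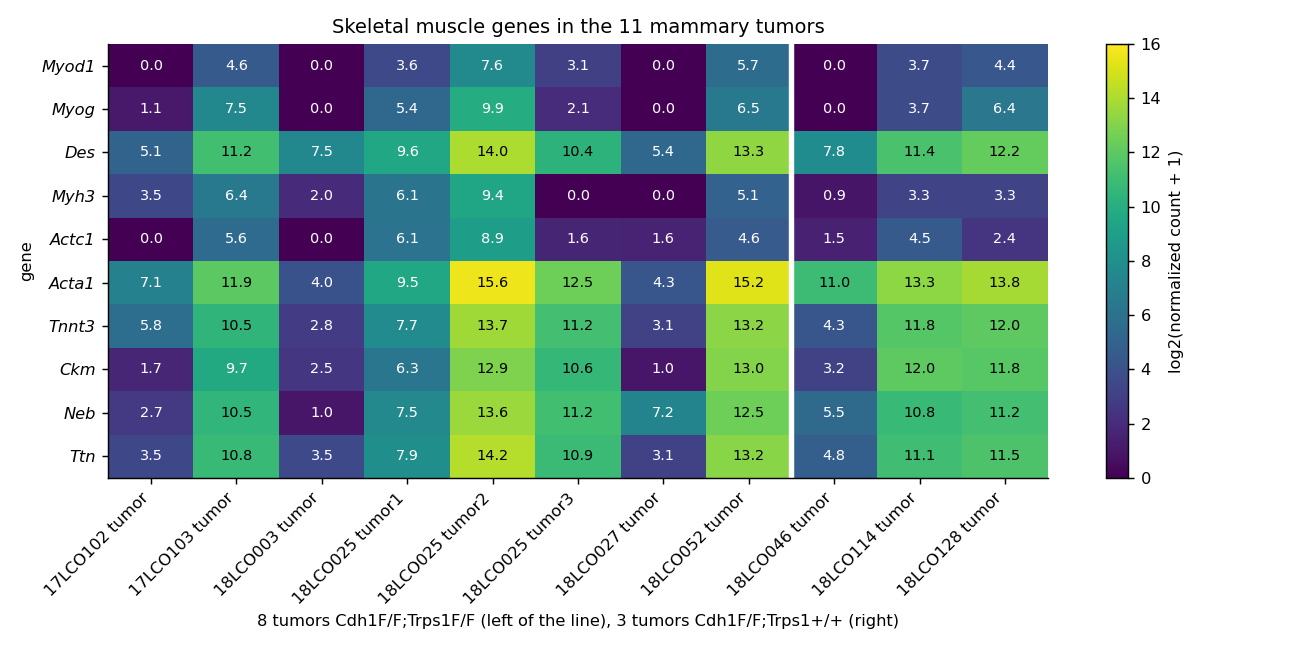
Level of the 10 genes, as log2(normalized count + 1), in each of the 11 tumors; columns are tumors, with the 3 of intact Trps1 to the right of the white line, and colour and figures give the value. Tumor 2 of 18LCO025 has the highest value of 9 genes (up to 15.6), and Myog, Myh3 and Actc1 are low in tumor 3 of 18LCO025 where Ckm is 10.6.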

How the data were processed

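RNA-seq of 33 samples was used, in 4 deposited tables that the authors normalized separately, so levels were tested within a table only. Per the labels' protocols, libraries were made with a TruSeq kit from RNA with an integrity number above 8, and per the submitters' processing notes TopHat and HTSeq were used with GRCm38; their versions are not stated in what was used. The deposited values are log2 values of normalized counts with 1 added, per the file headers and the values, which divide into whole reads times 1 factor per library (100% within 0.01 reads or a share of 1e-05). Among the 12 organoid columns, 8 have the same header as their replicate, and are named a and b only to tell them apart.

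Genes with a normalized count plus 1 of 10 or more in 3 libraries (TSA, tumors) or 2 (guides, organoids) were kept. The test was limma 3.58.1 (lmFit, then eBayes with a variance trend, R 4.3.3), with all 6 organoid groups in 1 model and tumors averaged per mouse. The test was checked on simulated data. Per-length levels use GENCODE M21 exon lengths. In 1 library 3 reads equal 2.03 to 4.51 normalized counts in the organoids. The members, the 16 lists and the rule for named genes were chosen with earlier results of these data known: all 10 members, Trps1 and Cdh1, up to 4 genes of each list with the smallest p in the day 14 comparison of Cdh1F/F;Trps1F/F with Cdh1F/F;Trps1+/+, named myosins and markers, and the 10 genes most like the panel mean. Alternatives were no filter, a pseudocount of 5, a common median, quantile normalization, voom weights on recovered reads, only the groups compared, replicate blocks and leaving out each library or mouse. The authors' deposited tables of fold changes were not used here. Deviations of same-numbered libraries from their group means had correlations of -0.137, 0.0238 and -0.130 for TSA. They were -0.246 for guides and -0.0374 for the 2 days of Cdh1F/F;Trps1F/F. With 2 libraries in a group, crossed numbers give the same value with the other sign, 0.246 and 0.0374. Replicate 1 of DMSO with replicate 3 of TSA gave 0.183. The check thus cannot show that no libraries shared a batch. No block is in the reported fits.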

Additional observations from a re-analysis of the deposited data

Results flagged for a closer look

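By the day by genotype term in limma, the genotype difference changed between day 14 and day 28 in 14 cases among 10 muscle genes. Of these, 10 were rises in the first comparison below, where 18.1% of all genes had such a rise. The other 4 were falls in the second, where 9.71% of all genes had such a fall. For Cdh1+/F;Trps1F/F against Cdh1F/F;Trps1+/+ the difference at day 28 minus that at day 14 was 3.03 for Tnnt3, 2.96 for Ttn, 2.71 for Neb, 2.28 for Myh3, 2.06 for Myog, 1.81 for Actc1, 1.77 for Ckm, 1.74 for Des, 1.74 for Acta1 and 1.47 for Myod1. For Cdh1F/F;Trps1F/F against Cdh1F/F;Trps1+/+ it was -1.90 for Ckm, -1.76 for Myod1, -1.38 for Acta1 and -1.07 for Des. The 2 sets share the Cdh1F/F;Trps1+/+ libraries. In the first set, Myod1, Myh3 and Actc1 lost their call in fits that left out 1 library. In the second set, no gene kept its call without replicate a of Cdh1F/F;Trps1+/+ at day 14.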

How the results depend on the processing

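Of 1388 values of single genes under alternative settings, 1275 kept their direction and side of the threshold, 64 lost the call, 16 gained one and 33 changed sign. All 10 members kept their call when each library was left out in turn for double-floxed against Trps1-intact organoids at day 28, for Cdh1-heterozygous against Trps1-intact at day 28, and between the floxed genotypes at both days. No filter gave 5 of 9 members higher with TSA, where 7273 of 22434 genes were higher and 5658 lower, and 1 higher and 1 lower of 7 with guide RNAs, where 4136 of 20587 genes were higher and 3836 lower. With only the groups compared in the fit, 6 members rose in Cdh1-heterozygous organoids at day 14, where 3128 of 15873 genes rose. In that setting 2 members had a day by genotype difference in double-floxed organoids, where 1096 genes were higher and 1207 lower. The reported fit had 1307 and 1541 such genes. For that term no filter also gave 2 members (1009 of 23758 genes higher and 1203 lower). Voom weights on recovered reads gave 1 (1337 and 1500 of 15873). Voom weights gave 6 members falling with time in double-floxed organoids, where 2933 of 15873 genes fell, against 3273 in the reported fit. Leaving out 1 library at a time gave 1 to 2 members for Cdh1-heterozygous at day 14, 3 to 6 for time in Trps1-intact organoids and 0 to 6 for the double-floxed day by genotype term. The planned edgeR test was not run, since the deposited unit is log2; voom and the crossed block were chosen after seeing the data.

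The following values, not called in the reported fit, changed sign. Acta1 with TSA was -1.45 after quantile normalization (adjusted p = 0.00713) and -0.077 to 0.37 without single libraries. In Cdh1-heterozygous organoids at day 14, Myod1 was -0.086 after quantile normalization, and without single libraries Actc1 ran from -0.47 to 0.069, Myod1 from -0.15 to 0.31 and Myh3 from -0.20 to 0.56. Time in Trps1-intact organoids gave Myod1 from -0.61 to 0.064. The double-floxed day by genotype term ran from -0.86 to 0.0035 for Neb, -0.30 to 0.74 for Actc1, -1.80 to 0.074 for Myh3 and -0.70 to 0.011 for Tnnt3. In tumors Myod1 was 0.10 with a pseudocount of 5, 0.28 with mouse as a random block and 0.40 with voom weights. Without single mice Actc1 ran from -0.59 to 0.95, Myod1 from -1.52 to 0.67 and Myog from -1.55 to 1.63. The cause was not tested.

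A replicate block left Myh3, Des and Ckm called with TSA. They passed the filter through the TSA libraries alone, so this is no test of them. Over all 13044 genes, that block gave 5619 higher and 5367 lower. For time in double-floxed organoids, a replicate block with only the groups compared gave 8 falling members, with Actc1 (adjusted p = 0.13) and Ckm (adjusted p = 0.053) not called. Only the groups compared, without the block, also gave 8, with Actc1 (limma adjusted p = 0.16) and Myh3 (limma adjusted p = 0.069) not called. Over all 15873 genes, 2433 fell with the block and 2298 without it, against 3273 in the reported fit. In the guide table, where 4351 genes were higher and 4073 lower, the replicate block gave 4273 and 3987, and crossed numbers 4559 and 4268. The 6 members not tested with TSA had at most 27 reads in a group, so values there rest on few reads.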
